A study of Mus musculus with 661 samples.

Results

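The secreted antagonists of Wnt signaling are proteins that stromal cells release and that keep Wnt ligands from activating their receptors. The group held 10 of the 45771 nuclear genes in the counts, and its members were chosen by gene symbol as known members of these families. They were *Wif1*, the secreted Frizzled-related genes *Sfrp1*, *Sfrp2*, *Sfrp4*, *Sfrp5* and *Frzb*, the Dickkopf genes *Dkk1*, *Dkk2* and *Dkk3*, and *Sost*.

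The study asked how the niche of blood stem cells changes with age, and sequenced RNA from single stromal cells of wild-type C57BL/6 mice of both sexes. Young mice were about 2 months old and gave 336 cells, and old mice were about 24 months old and gave 325 cells. The labels do not name the mouse of a cell. Counts of nuclear genes per cell ranged from 57517 to 1488549, with a median of 416359.

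The cells came from 6 populations, all sorted as negative for the blood cell markers Ter119 and CD45. MSC-L were mesenchymal stromal cells of the central marrow (CD31-negative, Sca-1-negative, and positive for CD51, PDGFRα and the leptin receptor LepR), with 53 young and 58 old cells. MSC-S were mesenchymal stromal cells of the endosteum, the inner lining of bone (CD31-negative, positive for Sca-1 and CD51), with 59 young and 59 old cells. Endosteal osteoprogenitors were CD51-positive and lacked Sca-1 and LepR. Those without PDGFRα were OPr (44 young, 29 old), and those with it were the multipotent mOPr (26 young, 26 old). Arteriolar endothelial cells (AEC; endosteal, CD31-positive, high in Sca-1 and low in CD105) numbered 84 young and 82 old, and sinusoidal endothelial cells (SEC; from the central marrow, CD31-positive, low in Sca-1 and high in CD105) 70 young and 71 old. The authors also assigned each cell to a cluster by its expression, M1 to M16 for mesenchymal and E1 to E7 for endothelial cells.

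Wnt ligands act by bridging a Frizzled receptor and the co-receptor LRP5 or LRP6, which stabilizes β-catenin and lets it switch on target genes with transcription factors of the TCF and LEF family. In bone this signaling favors the formation of osteoblasts from progenitors. Antagonists stop it outside the cell along separate routes: Wif1 and the secreted Frizzled-related proteins bind the Wnt ligands themselves, whereas Dkk1, Dkk2 and sclerostin, the product of *Sost*, bind the co-receptors. Dkk3 is a divergent member of the Dickkopf family that is not known to bind these co-receptors.

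Levels are CPM, the counts of a gene scaled to a common total of nuclear gene counts, summed over the cells of a group, with exact Poisson intervals in parentheses. Ratios carry exact conditional binomial intervals and shares of cells exact Clopper-Pearson intervals, all at the 95% level. The libraries carried no molecular identifiers, so that several reads can stem from 1 molecule. Intervals and limits cover the counting of reads only, and neither the sampling of molecules nor the spread between cells. Each age of a population counted as 1 sample, cells are not replicates, and no test between groups was made. A cell was taken to have a gene at 10 CPM or more. A gene was said to rise or fall with age when its level, with 1 CPM added, differed at least 2-fold, among genes that reached 100 counts over both ages of a population and were seen in 5 or more of its cells. A stricter rule also asked for the same direction without the top cells (at each age, the 1 cell richest in counts of the gene) and within every range of library numbers with at least 5 cells of each age. The library numbers in the cell titles fall into 3 such ranges, of which MSC-L, MSC-S, OPr and mOPr were in ranges 1 and 2, AEC in all of them and SEC in range 3 alone.

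The sorted populations were compared with lists of marker genes. A list of 8 MSC-L markers, led by *Cxcl12*, summed to 59422 CPM in young and 48935 CPM in old MSC-L. In OPr the same list stood at 6059.7 CPM in young and 23492 CPM in old cells, and in mOPr at 1044 and 21846 CPM. Old cells sorted as osteoprogenitors thus carried far more of these markers than young ones. Of 29 old OPr, 7 were in the MSC-L cluster M1 and 3 in the MSC-L cluster M2, and of 26 old mOPr 4 and 10.

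Other lists separated some populations and not others. All 8 MSC-S markers were present in MSC-S, with *Ly6a* at 912 CPM in young cells and sums of 3660.1 CPM in young and 4024 CPM in old cells, against 628 CPM in young MSC-L, nearly all of it *Pdgfra*, and 125 CPM in young OPr, where 2 of the genes had no count. AEC had 2400.4 CPM of this list in young and 2571 CPM in old cells, with *Ly6a* at 1494 CPM in young AEC, above its level in young MSC-S. Osteoblast lineage markers summed to 5215 and 3831 CPM in young and old OPr and to 11333 and 13485 CPM in mOPr, but they reached 11538 CPM in young MSC-L as well (*Ibsp* at 8012 CPM). Endothelial markers, 10 of 10 present in both endothelial populations, stood at 10646 CPM in young AEC and 9774 CPM in young SEC. AEC markers summed to 3281 CPM in young AEC and 225 CPM in young SEC, and SEC markers, led by *Stab2* in SEC, to 1056 and 16109.6 CPM. In old cells AEC markers were at 3979 CPM in AEC and 1274 CPM in SEC, and SEC markers at 437 and 12561 CPM, so that old SEC carried more of the AEC list than young SEC.

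Markers of other lineages were seen as well. Old OPr contained 8 cells with at least 7 of 15 hematopoietic markers. The list summed to 10628 CPM in old OPr, with 13 of 15 genes at 10 CPM or more and *S100a9* at 4041 CPM, and to 7.74 CPM in young OPr. In SEC it summed to 115 CPM in young and 372 CPM in old cells. Chondrocyte markers (8 genes, *Col2a1* the highest in young OPr) went the other way. They outweighed the osteoblast lineage markers in young OPr and mOPr. They summed to 56310.2 CPM in young and 10876 CPM in old OPr, and to 14653 and 737 CPM in mOPr. Tenocyte markers also fell, from 704 to 28.7 CPM in OPr and from 1180 to 127 CPM in mOPr. Pericyte and smooth muscle markers rose, from 779 to 1883 CPM in OPr and from 526 to 1847 CPM in mOPr. Of 10 mesenchymal markers, at least 7 were present in 8 young and 5 old SEC and in 2 young and 1 old AEC.

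Over all cells the members differed widely in how often they were seen. *Sfrp4* was present in 237 cells, *Dkk3* in 166, *Wif1* in 133 and *Sfrp1* in 114. Next came *Dkk2* with 40 cells, *Frzb* with 34, *Sfrp2* with 29 and *Sfrp5* with 12. *Dkk1* and *Sost* were close to absent, with 55 and 11 counts over all cells. Endothelial cells held 0.56% of the counts of *Wif1*, 1.29% of those of *Sfrp4* and 4.27% of those of *Sfrp1*, against 44.7% of those of *Dkk2*.

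**Figure D1:**
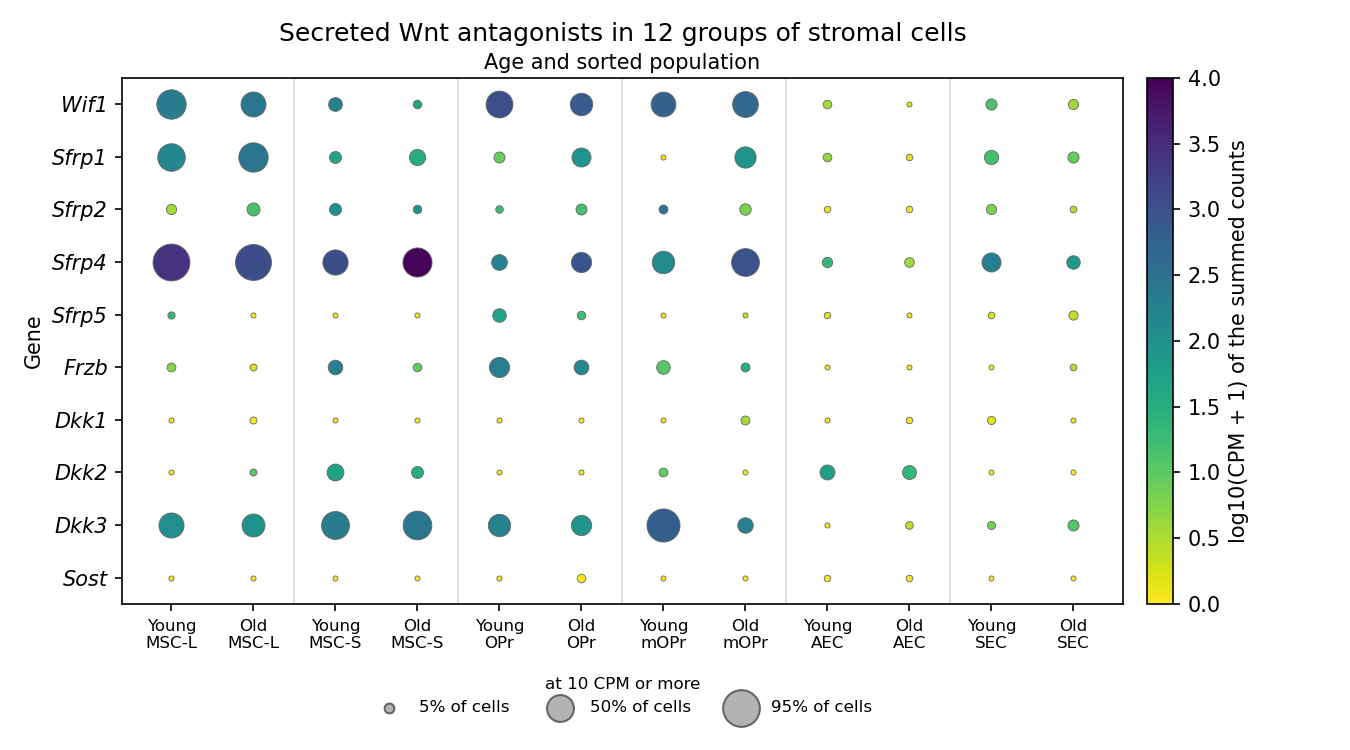
Level and frequency of the 10 antagonists in 12 groups of cells (columns, by sorted population and age), with color for log10(CPM + 1) of the summed counts and dot area for the percent of cells at 10 CPM or more. *Sfrp4* was seen in most MSC-L and was highest in old MSC-S, *Wif1* was highest in young OPr, and *Dkk2* was the leading member in AEC.

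Which antagonist led depended on the population. Compared per kb of exon length, *Sfrp4* had the highest level in 7 of 12 groups, namely MSC-L, MSC-S and SEC of both ages and old mOPr. *Wif1* led in 3 groups, OPr of both ages and young mOPr, and *Dkk2* in AEC of both ages. In young AEC the lead of *Dkk2* came from range 2, where it had 99.7 CPM. In range 1 *Sfrp4* was higher (70.1 against 14.4 CPM), and in range 3 *Sfrp1* was (2.32 against 0.927 CPM). In young MSC-L *Sfrp4* stood at 615 CPM per kb, above *Wif1* at 91.8 and *Sfrp1* at 33.1 CPM per kb. Young OPr had *Wif1* at 454 CPM per kb, ahead of *Frzb* at 61.2 and *Dkk3* at 55.2 CPM per kb. Young mOPr had less of a leader, with *Wif1* at 236 and *Dkk3* at 198 CPM per kb. By CPM without regard to length, the leading member was the same in 10 of the groups.

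With age the members moved in both directions. In MSC-L, 7 members passed the count filter and 4 of them rose or fell (25.4% of 13143 genes did so), 3 by the stricter rule (19.2% of genes). In MSC-S it was 3 of 7 members (19.7% of 13381 genes) and 3 by the stricter rule (14.5%). In OPr 4 of 7 members moved (45.2% of 13418 genes), 3 by the stricter rule (34.7%). In OPr the share of members was thus not far above a high background. In mOPr 5 of 6 members moved (44.5% of 11237 genes), 3 by the stricter rule (34%). In AEC all 4 members that passed the filter fell (21.1% of 14042 genes rose or fell), but 1 did so by the stricter rule (9.98%). In SEC 3 of 5 fell (20.7% of 12982 genes rose or fell), the same number by the stricter rule (20.1%), which in SEC rests on a single range. A gene high at 1 age only can pass the filter through that age, so these counts describe the members that passed and not the group of 10.

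The median log2 old over young ratio of the members that passed was -0.21 in MSC-L, -0.50 in MSC-S, -0.59 in OPr and 0.52 in mOPr. In AEC it was -1.51 and in SEC -1.29. Over all genes tested the medians, in the same order, were 0.01, -0.06, 0.14, 0.11, -0.03 and 0.05. Scaling by median-of-ratios size factors moved the median of all genes by -0.16 in OPr and -0.13 in mOPr on the log2 scale, and no call of a member changed direction under it.

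**Figure D2:**
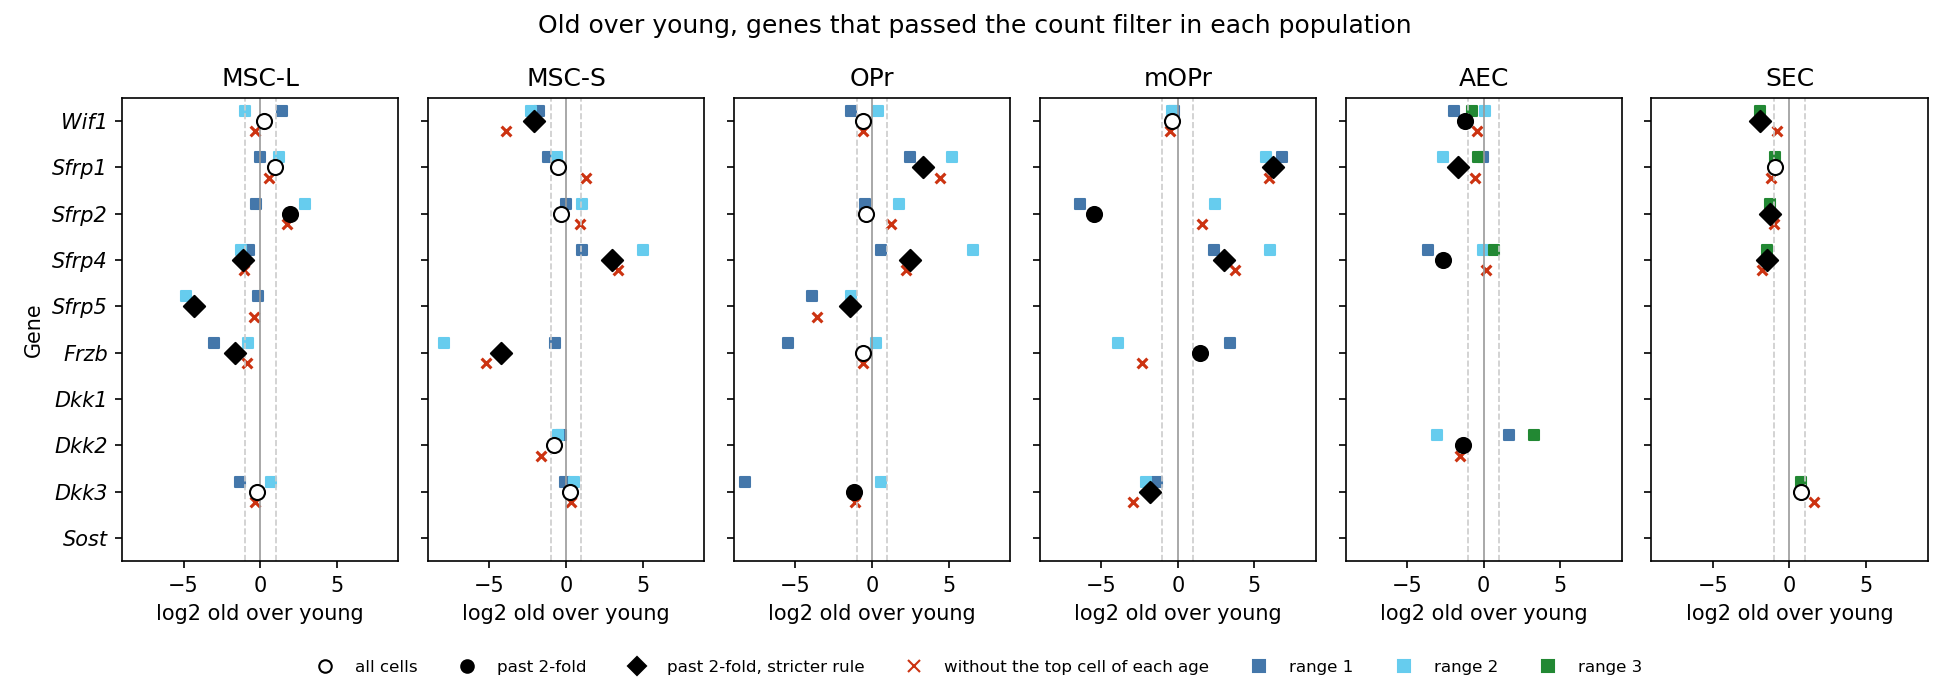
Log2 old over young ratio (x axis) of each member that passed the count filter (y axis) in each sorted population, for all cells (circles, filled past 2-fold; diamonds, past 2-fold by the stricter rule), within each library-number range (squares) and without the top cell of each age (crosses). *Sfrp4* fell in MSC-L and SEC and rose in MSC-S, OPr and mOPr, while squares on both sides of 0 mark values that differed in direction between ranges, such as *Dkk2* in AEC.

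*Wif1* (ENSMUSG00000020218) lies on the plus strand of chromosome 10 from 121033960 to 121100650 (GRCm38, GENCODE M21, also for the genes below). Its product binds Wnt ligands. Its summed level was highest in young OPr, with 1101 CPM (1089 to 1113) in young and 732 CPM (721 to 744) in old OPr and 572 CPM (560.1 to 585) in young and 433 CPM (421 to 444) in old mOPr. Single cells of young OPr ranged from 0 CPM in the lowest cell to 9258 CPM in the highest, with a median of 7.89 CPM. In old OPr the lowest, median and highest cells had 0, 1.42 and 6839.5 CPM, in young mOPr 0, 4.88 and 6491 CPM and in old mOPr 0, 4.79 and 3852 CPM. A few cells with very high levels thus stood above many with little or none, and the ages overlapped. *Wif1* was present in 50% (34.6 to 65.4%, 22 of 44) of young OPr and 34.5% (17.9 to 54.3%, 10 of 29) of old OPr, which include the cells with hematopoietic markers. With these cells left out old OPr had 977 CPM, 1.13-fold (1.11 to 1.15) lower than young OPr. The summed levels differed by less than 2-fold between ages. In OPr the ranges went opposite ways, from 1786 CPM in young to 695 CPM in old cells in range 1 (log2 ratio -1.36) and from 572 to 758 CPM in range 2 (0.40).

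Much of the *Wif1* signal came from cluster M4. Its 13 cells, 10 of them sorted as OPr, held 43.9% of all *Wif1* counts, and every cell of the cluster had the gene, with the lowest, median and highest cell at 16, 1688 and 9258 CPM. M4 carried chondrocyte markers, with 8 of 8 genes of the list at 10 CPM or more, summing to 63508 CPM (*Cytl1* at 21277 CPM). The MSC-L cluster M2 held 25.3% of the *Wif1* counts at 1104 CPM, and M15, a cluster of 17 young and 0 old cells, held 10.4% at 693 CPM. By cluster, 81% of the young OPr counts were in M4, while in old OPr 52% were in M2 and 44.5% in M4. The *Wif1* of young OPr thus lay mostly in cells with chondrocyte markers. That of old OPr lay in part in the MSC-L cluster M2, where 1 cell held 36.8% of the old OPr counts. Without that cell, 6960 of 9896 old OPr counts lay in M4. In clusters M3 to M5 alone, OPr had 1409.8 CPM in young and 594 CPM in old cells, 2.37-fold (2.31 to 2.44) lower, and mOPr 413 and 205 CPM, 2.02-fold (1.88 to 2.17) lower. With the top cells of these clusters left out, old cells were 6.57-fold (6.24 to 6.92) lower in OPr and 2.02-fold (1.8 to 2.28) lower in mOPr.

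In MSC-S, *Wif1* fell with age. Young MSC-S had 184 CPM (179.99 to 189) and old MSC-S 41.8 CPM (39.8 to 43.9), a level 4.42-fold (4.18 to 4.66) lower, with a log2 ratio of -1.78 in range 1 and -2.29 in range 2. Most cells of either age had none, since the median cell was at 0 CPM and the gene was present in 7 of 59 young and 2 of 59 old cells. Of the old counts, 1 cell of M9 with 1604 CPM and 1 of M4 with 1688 CPM held nearly all. Without the top cell of each age the level was 133 CPM in young and 7.82 CPM in old MSC-S, and the fall was 17-fold (15.1 to 19.2). Without the M9 cells old MSC-S had 9.67 CPM. In young MSC-S, 65.2% of the counts lay in 5 cells of M15.

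In MSC-L *Wif1* stood at 223 CPM (217 to 229) in young and 269 CPM (261 to 276) in old cells. Young cells ranged from 0 CPM in the lowest cell to 2993 CPM in the highest, with a median of 28.9 CPM, and old cells from 0 CPM in the lowest cell to 7599 CPM in the highest, with a median of 6.33 CPM. *Wif1* was present in 60.4% (46 to 73.5%, 32 of 53) of young and 43.1% (30.2 to 56.8%, 25 of 58) of old MSC-L, whose ranges overlapped. The old sum rested on 1 cell with 54.1% of the counts, and without the top cells it was 126 CPM, below 161 CPM in young cells. The ranges also went opposite ways, with log2 ratios of 1.39 in range 1 and -0.98 in range 2, so that no direction with age can be given for MSC-L.

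Endothelial cells had little *Wif1*. SEC fell from 13 CPM (11.5 to 14.5) to 2.75 CPM (2.08 to 3.56), and AEC from 2.58 CPM (2.08 to 3.17) to 0.573 CPM (0.35 to 0.886). The SEC with mesenchymal markers held 90.1% of the young SEC counts, and without such cells the level was 1.47 CPM in young and 1.87 CPM in old SEC. The fall in SEC was thus lost without these cells, and without the top cell of each age it stood at 2.15-fold (1.46 to 3.2), short of 2-fold with the pseudocount (log2 ratio -0.82). In young AEC 1 cell held 61.1% of the counts, and without the top cells the level was 1.01 CPM in young and 0.524 CPM in old AEC, a difference short of 2-fold with the pseudocount.

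**Figure D3:**
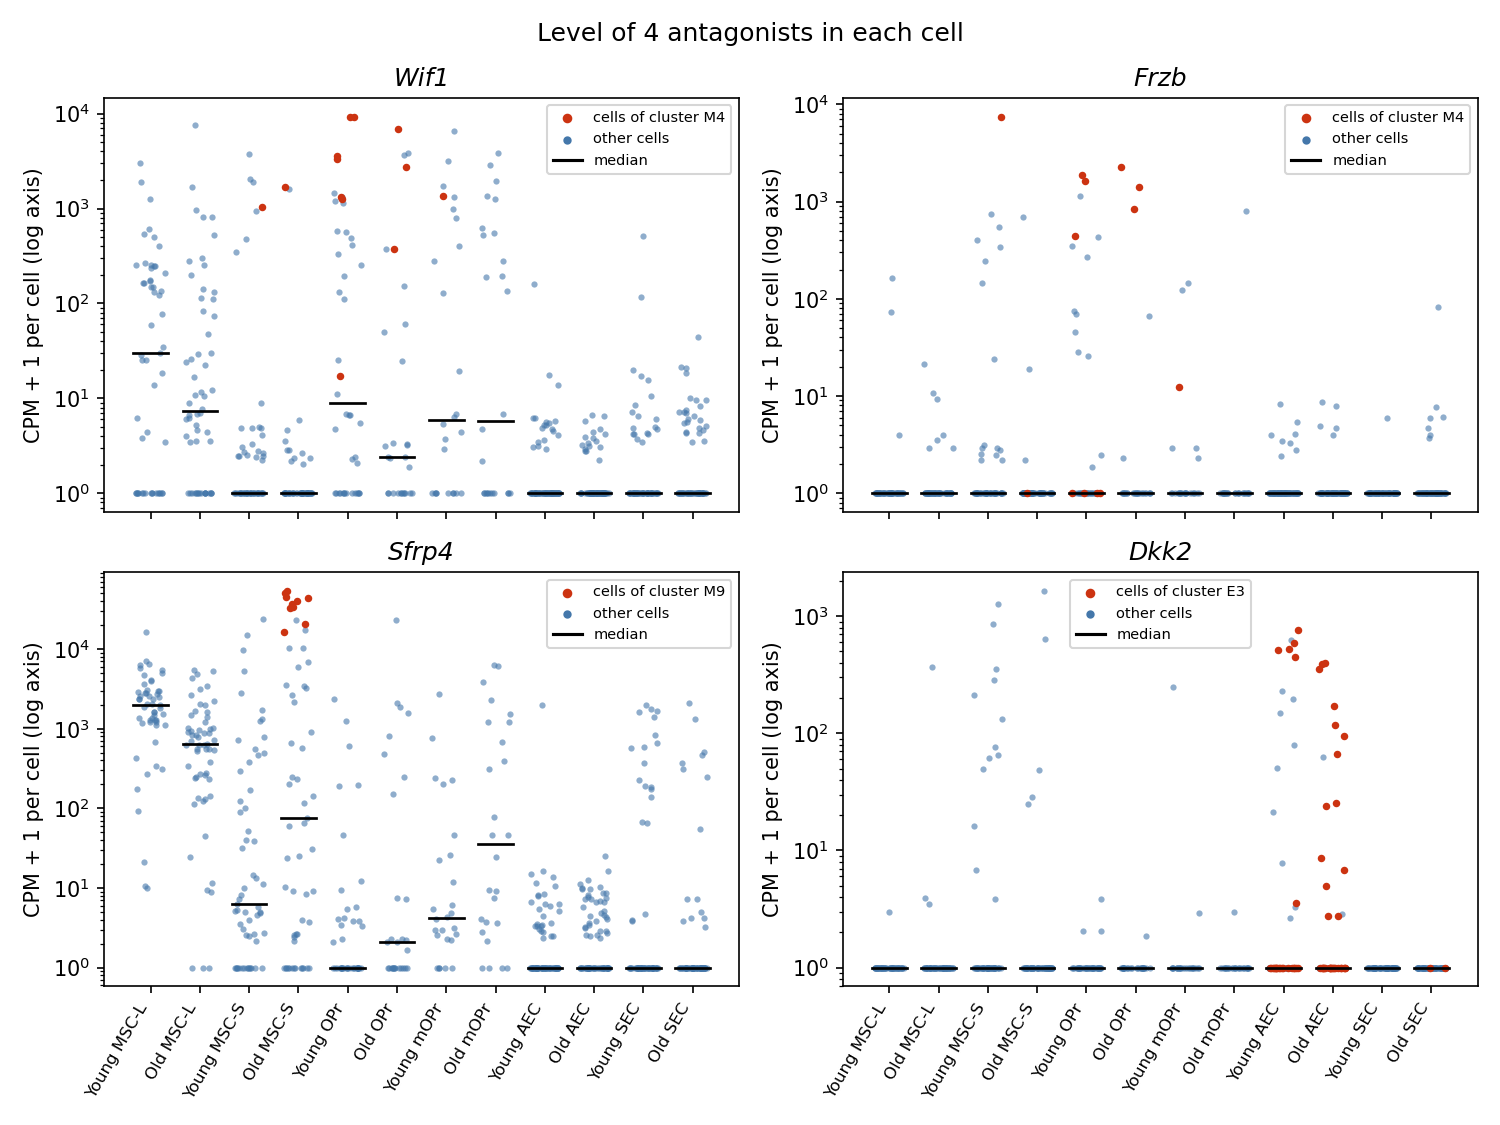
CPM + 1 in every cell (y axis, log scale) of *Wif1*, *Frzb*, *Sfrp4* and *Dkk2* in the 12 groups of sorted population and age (x axis), with the median of each group as a black line and the cells of 1 named cluster in red. The M4 cells carried *Wif1* and most of the *Frzb* counts, and the M9 cells, all old MSC-S, were high in *Sfrp4*.

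*Sfrp4* (ENSMUSG00000021319) lies on the plus strand of chromosome 13 from 19623104 to 19632994, and its product binds Wnt ligands through a domain like that of their Frizzled receptors. It was the most abundant member in MSC-L, and there it fell with age. Single young MSC-L ranged from 8.98 CPM in the lowest cell to 16199 CPM in the highest, with a median of 1962 CPM, and old MSC-L from 0 CPM in the lowest cell to 5391 CPM in the highest, with a median of 633 CPM. Nearly every cell had the gene at both ages (51 of 53 young and 53 of 58 old cells), and the levels of young and old cells overlapped with the old cells shifted down. Summed, the level was 2569.8 CPM (2549 to 2591) in young and 1189.8 CPM (1175 to 1205) in old MSC-L, 2.16-fold (2.13 to 2.19) lower in old cells. The log2 ratio was -0.74 in range 1 and -1.27 in range 2, so that the fall passed 2-fold in range 2 only, and without the top cells it was -1.07. In the MSC-L clusters, counted over all sorted populations, M1 had 2315 CPM in young and 1640.3 CPM in old cells, and M2 had 2654 and 487 CPM. Of their old cells, 33 of 44 in M1 and 23 of 36 in M2 were sorted as MSC-L. The young M2 level, from 14 cells, leaned on a single cell, which held 14.2% of all young MSC-L counts. The highest M2 cell, a young MSC-L, stood at 16199 CPM, against an M2 median of 313 CPM over both ages. The M2 levels were not computed without the top cell, so the size of the fall within M2 is uncertain.

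In MSC-S the same gene rose. Young MSC-S had 1179 CPM (1167 to 1190.2) and old MSC-S 9302 CPM (9271 to 9332), 7.89-fold (7.81 to 7.97) higher. Single young cells ranged from 0 CPM in the lowest cell to 23582 CPM in the highest, with a median of 5.22 CPM, and old cells from 0 CPM in the lowest cell to 53473 CPM in the highest, with a median of 73.6 CPM. *Sfrp4* was present in 44.1% (31.2 to 57.6%, 26 of 59) of young and 59.3% (45.7 to 71.9%, 35 of 59) of old MSC-S, and the ages overlapped over much of their span. Young M7 and M12 cells reached 15106 and 23582 CPM. The highest old cell and the highest median belonged to cluster M9, 10 cells that were all old MSC-S, 9 of them in range 2.

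The lowest, median and highest M9 cell had 16247, 38832 and 53473 CPM, and together they held 86.3% of the old MSC-S counts and 59.1% of the *Sfrp4* counts of all cells in the data. M9 cells carried the MSC-S markers (8 of 8 genes, 4796 CPM in sum, *Ly6a* at 1746 CPM) and 1.07 CPM of the hematopoietic list. Without M9, old MSC-S had 1621 CPM, 1.38-fold (1.36 to 1.39) the young level and short of 2-fold. By range the log2 ratio was 1.00 in range 1, where young MSC-S had 2731 CPM and old MSC-S 5477 CPM, and 4.98 in range 2, where they had 334 and 10589 CPM. Outside M9, cluster M7 had 3584 CPM in 9 young and 7019 CPM in 6 old cells. Cluster M12, which also holds 4 mOPr, had 1892 CPM in 17 young and 2625 CPM in 10 old cells. The young M12 level leaned on 1 cell at 23582 CPM, which held 33% of the young MSC-S counts. Among sorted MSC-S the median cell was at 788 CPM in young and 6428 CPM in old M7, and at 31.2 and 388 CPM in M12.

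In cells sorted as osteoprogenitors *Sfrp4* also rose. OPr had 165 CPM (160.4 to 169.8) in young and 904 CPM (892 to 917) in old cells, 5.48-fold (5.31 to 5.66) higher, and mOPr 119 CPM (113 to 125) in young and 987 CPM (969 to 1004) in old cells, 8.3-fold (7.89 to 8.73) higher. The lowest, median and highest cells were at 0, 0 and 2382 CPM in young and 0, 1.07 and 22992 CPM in old OPr, and at 0, 3.17 and 2705 CPM in young and 0, 34.2 and 6326 CPM in old mOPr. Old cells overlapped with young ones in both populations and reached higher. Of the young OPr counts, 91.7% lay in 3 cells of the MSC-L cluster M1, and of the old ones 37.5% in 7 cells of M1 and 62.4% in M5. In old OPr 1 cell of M5 held 62.4% of the counts, and without the top cells the level was 74 CPM in young and 348 CPM in old OPr (4.71-fold, 4.49 to 4.95). Of the 7266 old counts then left, 7253 lay in the 7 cells of the MSC-L cluster M1. In clusters M3 to M5 alone OPr had 8.46 and 1026 CPM (121-fold, 105 to 141), nearly all from that 1 cell, and with the top cells of these clusters left out 1.43 and 0.622 CPM, in the opposite direction. The OPr log2 ratio was 0.56 in range 1, short of 2-fold, and 6.59 in range 2.

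Old mOPr differed from young mOPr in cluster as well. Of their *Sfrp4* counts, 65.4% lay in 4 cells of the MSC-L cluster M1 and 30.5% in 10 cells of M2. In the osteoprogenitor clusters M3 to M5 alone (8 young and 12 old mOPr), the level was 247 CPM in young and 86.4 CPM in old cells, so that the direction turned and old cells were 2.86-fold (2.57 to 3.18) lower, and 2.77-fold (1.96 to 3.95) lower with the top cells of these clusters left out. Without the top cells, mOPr had 52 and 701 CPM (13.5-fold higher in old cells, 12.5 to 14.5). How much of the rise in sorted mOPr came with the MSC-L markers of old cells was not tested.

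SEC went the way of MSC-L, with 204 CPM (198 to 210.1) in young and 74.3 CPM (70.6 to 78.1) in old cells, 2.75-fold (2.59 to 2.91) lower in old SEC. Single young SEC ranged from 0 CPM in the lowest cell to 1967 CPM in the highest, with a median of 0 CPM, and old SEC from 0 CPM in the lowest cell to 2090.3 CPM in the highest, with a median of 0 CPM. Most SEC had none, and *Sfrp4* was present in 24.3% (14.8 to 36%, 17 of 70) of young and 11.3% (4.99 to 21%, 8 of 71) of old cells. Cluster E1 held 85.4% of the young and 83.2% of the old counts. All 14 E1 cells had the gene, at 188, 1366 and 2090.3 CPM in the lowest, median and highest cell.

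E1 combined markers of both lineages. It had 10 of 10 endothelial markers at 10 CPM or more (4394 CPM in sum, *Cldn5* at 1220.3 CPM) and 10 of 10 mesenchymal markers (35530.2 CPM, *Cxcl12* at 29545 CPM). Without the cells with mesenchymal markers, SEC had 63.9 CPM of *Sfrp4* in young and 12.9 CPM in old cells, and the fall was 4.95-fold (4.31 to 5.69), with some E1 cells still among them. Leaving out all of E1 gave 35.1 and 13.3 CPM, 2.64-fold (2.28 to 3.06) lower in old cells. In AEC 1 young E1 cell held 90.6% of the counts of its group, which fell from 21.7 CPM (20.1 to 23.3) to 2.67 CPM (2.15 to 3.27). Without the top cells AEC had 2.06 CPM in young and 2.41 CPM in old cells, and the direction turned.

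*Sfrp1* (ENSMUSG00000031548) lies on the plus strand of chromosome 8 from 23411502 to 23449632. In young mice it was a gene of MSC-L, and in old mice some cells sorted as OPr or mOPr had it as well. Most *Sfrp1* counts of old OPr and of old mOPr came from cells that clustered as MSC-L (M1 or M2). Young MSC-L had 145 CPM (139.9 to 149.9) and old MSC-L 277 CPM (269.6 to 284), with the lowest, median and highest cell at 0, 16.8 and 1029 CPM in young and 0, 25.4 and 18023 CPM in old cells. It was present in 52.8% (38.6 to 66.7%, 28 of 53) of young and 60.3% (46.6 to 73%, 35 of 58) of old MSC-L, and the cells overlapped widely. A single old cell of M5 held 32.3% of the old counts, and without the top cells the levels were 126 and 188 CPM.

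In OPr *Sfrp1* rose from 7.43 CPM (6.48 to 8.49) to 84.6 CPM (80.7 to 88.6), 11.4-fold (9.88 to 13.2). The cells lay in different clusters at each age, with 89.9% of the young counts in M4, and 42.4% and 35.9% of the old counts in the MSC-L clusters M2 and M1. All of the M2 counts came from 1 old cell. Cells with the gene went from 3 of 44 in young to 7 of 29 in old OPr, with the highest cell at 182 CPM in young and 566 CPM in old and the median cell at 0 CPM at both ages. In young OPr 1 cell held 80.7% of the counts, so that without the top cells the levels were 1.48 CPM and 52.3 CPM (35.3-fold, 26 to 49.3). The rise was seen in range 1 (log2 ratio 2.48) and range 2 (5.20). Without the cells with hematopoietic markers it was 15.2-fold (13.2 to 17.6). In clusters M3 to M5 alone it was 3.69-fold (3.1 to 4.41), but with the top cells of these clusters left out young OPr had 0.962 CPM and old OPr 0.18 CPM, in the opposite direction.

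In mOPr the difference was larger. Young mOPr had 2 counts of *Sfrp1*, or 0.137 CPM (0.0166 to 0.495), and old mOPr 1026 counts, or 82.2 CPM (77.2 to 87.4), a ratio of 599-fold (165 to 4956). The gene was present in 0 of 26 young and 30.8% (14.3 to 51.8%, 8 of 26) of old mOPr, and the highest cell stood at 1.55 CPM in young and 649 CPM in old cells. Young cells were thus at or near 0 while a minority of old cells had the gene, and the rise passed 2-fold in each range and under each alternative that was tried. Without the top cells the ratio was 916-fold (164 to 36241). Of the old counts, 38.9% were in M2 and 36.5% in M1. In M3 to M5, young mOPr had 0 counts and old mOPr 252 counts, or 42.6 CPM, of which 35 counts lay outside the top cell.

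MSC-S and endothelial cells had less *Sfrp1* than MSC-L. MSC-S had 44.5 CPM (42.3 to 46.8) in young and 31.2 CPM (29.5 to 33) in old cells, but 1 young cell held 82.8% of the young counts, and without the top cells the levels were 7.8 and 20.7 CPM, in the opposite direction. AEC fell from 3.79 CPM (3.17 to 4.49) to 0.516 CPM (0.306 to 0.816). There, too, 1 young cell held 72.7% of the counts, and without the top cells the log2 ratio was -0.54, short of 2-fold. By range the AEC log2 ratio was -2.62 in range 2, but -0.01 in range 1 and -0.37 in range 3. SEC had 15.5 CPM (13.9 to 17.2) in young and 7.58 CPM (6.44 to 8.86) in old cells, of which the cells with mesenchymal markers held 56.2% and 71.3%. Without them SEC had 7.83 and 2.34 CPM, 3.34-fold (2.38 to 4.77) lower in old cells, but that set still held young E1 cells. Leaving out all of E1 instead gave 3.92 and 2.37 CPM, with a log2 ratio of -0.54, short of 2-fold.

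*Sfrp2* (ENSMUSG00000027996) lies on the plus strand of chromosome 3 from 83766321 to 83774316 and overlaps the antisense gene *Gm26771*, which had 49 counts over all cells. It was a gene of very few cells, each of which could hold almost all the counts of its group. Cluster M12 held 60.7% of all *Sfrp2* counts in 2 of 27 cells with the gene. Young mOPr had 294 CPM (286 to 303), of which 1 cell at 8291 CPM held 99.9%, and old mOPr had 5.69 CPM (4.44 to 7.17). Without the top cells mOPr had 0.213 CPM in young and 2.7 CPM in old cells, so that the fall turned into a higher level in old cells. MSC-S had 100.2 CPM (96.9 to 104) in young and 80.7 CPM (77.9 to 83.5) in old cells, with 92.2% and 80.9% of the counts in the top cell, and without the top cells 7.9 and 15.7 CPM. Apart from single cells, *Sfrp2* was therefore low in these populations.

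MSC-L had 2.59 CPM (1.97 to 3.34) of *Sfrp2* in young and 13 CPM (11.5 to 14.7) in old cells, 5.04-fold (3.78 to 6.8) higher. It was found in 3 of 53 young and 6 of 58 old MSC-L, and the log2 ratio was 2.90 in range 2 but -0.26 in range 1. OPr had 19 CPM (17.4 to 20.6) in young and 14.1 CPM (12.5 to 15.8) in old cells, with 99.5% of the young counts in 1 cell, and without the top cells 0.106 and 1.66 CPM. SEC fell from 5.79 CPM (4.83 to 6.89) to 1.79 CPM (1.26 to 2.46), and the cells with mesenchymal markers held 79.5% of the young counts. Without them SEC had 1.37 and 0.677 CPM, a difference short of 2-fold with the pseudocount, and leaving out all of E1 gave a log2 ratio of 0.12, in the opposite direction.

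*Sfrp5* (ENSMUSG00000018822) lies on the minus strand of chromosome 19 from 42197971 to 42202252. It was present in 12 cells, and clusters M5 and M4 held 64.6% and 31.2% of its counts. It fell in OPr, from 48.2 CPM (45.8 to 50.8) to 16.9 CPM (15.2 to 18.7), 2.86-fold (2.54 to 3.22) lower. The gene was present in 5 of 44 young and 1 of 29 old OPr, with the highest cell at 1448 and 517 CPM and the median cell at 0 CPM at both ages. The top cell held 72.3% of the young and 98.6% of the old counts, and without the top cells OPr had 13.7 and 0.242 CPM (56.7-fold lower, 24.1 to 175). The fall in MSC-L, from 20.9 CPM (19 to 22.8) to 0.103 CPM (0.0124 to 0.371), rested on 1 young cell of M5 with 98.1% of the counts, without which young MSC-L had 0.404 CPM. Old mOPr had 14 counts and young mOPr 0, at least 5.45-fold higher in old cells, with the floor of 3 counts over the group in place of 0. In all other groups *Sfrp5* was under 2 CPM.

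*Frzb* (ENSMUSG00000027004) lies on the minus strand of chromosome 2 from 80411970 to 80447625. It is also known as Sfrp3 and was first described in cartilage. Here it marked the same cluster as *Wif1*. M4 held 74% of all *Frzb* counts, at 1315 CPM, with the lowest, median and highest cell at 0, 439 and 7439 CPM. The gene was present in 8 of 13 M4 cells, all of which also had *Wif1*. M5 came next with 13.1% of the counts at 70.3 CPM.

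By population, *Frzb* stood at 198 CPM (193 to 203) in young and 129.9 CPM (125 to 135) in old OPr, less than 2-fold apart. The lowest, median and highest cells were at 0, 0 and 1871 CPM in young and 0, 0 and 2288 CPM in old OPr, and 12 of 44 young and 4 of 29 old cells had the gene. Ranges differed in direction, with log2 ratios of -5.48 and 0.27 in ranges 1 and 2. MSC-S fell from 197 CPM (192 to 202) to 9.65 CPM (8.7 to 10.7), 20.4-fold (18.4 to 22.7) lower, with 8 of 59 young and 2 of 59 old cells having the gene. The top young cell, of M4, held 79.6% of the counts, and the top old cell 98.9%. Without both, MSC-S had 41 and 0.104 CPM, a ratio of 396-fold (154 to 1455) with 4 old counts. Range 1 alone had a log2 ratio of -0.75, short of 2-fold, and range 2 -7.94.

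In the other populations *Frzb* was scarce. MSC-L fell from 4.25 CPM (3.45 to 5.19) to 0.667 CPM (0.355 to 1.14), with 1 young cell holding 60.8% of the counts and 1.69 and 0.473 CPM without the top cells, short of 2-fold with the pseudocount. In mOPr the level was 10.4 CPM (8.77 to 12.1) in young cells and 30.0 CPM (27.1 to 33.2) in old cells. All old counts came from 1 cell, without which old mOPr had 0 counts and young mOPr, without its top cell, 4.16 CPM, in the opposite direction. In endothelial cells *Frzb* did not exceed 1.59 CPM.

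*Dkk1* (ENSMUSG00000024868) lies on the minus strand of chromosome 19 from 30545863 to 30549665 and encodes an inhibitor that binds the co-receptors. It had 55 counts in 11 cells, of which 1 old mOPr with 85.1 CPM held 32. Young mOPr had no count, which allows up to 0.206 CPM, and the old level of 2.56 CPM (1.75 to 3.62) was at least 12.5-fold higher. Young SEC had 13 counts and old SEC 2, 6.14-fold (1.39 to 56.1) lower. No population passed the count filter for *Dkk1*.

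*Sost* encodes sclerostin, the product of osteocytes, which are embedded in bone. The gene (ENSMUSG00000001494) lies on the minus strand of chromosome 11 from 101962458 to 101967015. It had 11 counts in 6 cells, the highest of them an old OPr at 34.8 CPM. MSC-L and mOPr of both ages were without a count, with upper limits of 0.132 CPM in young and 0.154 CPM in old MSC-L, and of 0.206 and 0.24 CPM in mOPr. A list of 5 osteocyte markers summed to 26.8 CPM in young and 132 CPM in old OPr. It reached 398 CPM in old MSC-L (*Phex* at 386 CPM), 281 CPM in old SEC (*Fgf23* at 254 CPM), 167 CPM in old MSC-S (*Pdpn* at 165 CPM) and 149.9 CPM in young SEC (*Fgf23* at 143 CPM).

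*Dkk2* (ENSMUSG00000028031) lies on the plus strand of chromosome 3 from 132085292 to 132180304. It had the largest endothelial share of the members with at least 1000 counts, 44.7%, and within the endothelium it was seen in AEC alone. AEC had 56.6 CPM (54.1 to 59.2) in young and 21.4 CPM (19.9 to 23) in old cells, whereas SEC of both ages were without a count, with upper limits of 0.137 CPM in young and 0.145 CPM in old SEC. All SEC were in range 3, where young AEC had only 6 counts (0.927 CPM) and old AEC 114 counts (17.9 CPM). Most young AEC counts came from range 2, which holds no SEC. The gene was present in 14.3% (7.61 to 23.6%, 12 of 84) of young and 12.2% (6.01 to 21.3%, 10 of 82) of old AEC. The lowest, median and highest AEC were at 0, 0 and 758 CPM in young and 0, 0 and 394 CPM in old cells, so that a minority of AEC carried the gene at both ages and the ages overlapped.

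Within AEC, *Dkk2* belonged to the AEC clusters E3, at 77.5 CPM (74.2 to 80.9), and E4, at 23.6 CPM (21.8 to 25.6). E3 carried 7 of 7 markers of the AEC list. The summed level fell 2.64-fold (2.43 to 2.88) with age, but the ranges went opposite ways. Young and old AEC had 14.4 and 47.7 CPM in range 1, 99.7 and 11.2 CPM in range 2, and 0.927 and 17.9 CPM in range 3, with log2 ratios of 1.66, -3.05 and 3.29. The pooled fall thus came from range 2, and old cells were higher in the other ranges.

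A second *Dkk2* source was MSC-S, with 53.1 CPM (50.7 to 55.6) in young and 30.8 CPM (29.1 to 32.6) in old cells. Nearly all of it lay in range 1, at 142.5 CPM in 20 young and 114 CPM in 19 old cells. Range 2 had 4.42 CPM in 39 young and 2.76 CPM in 40 old cells. It was present in 11 of 59 young and 5 of 59 old cells, and cluster M12, at 154 CPM, held 72.2% of the young and 94.8% of the old counts. M12 had 4 of 4 tenocyte markers at 10 CPM or more (4550.1 CPM in sum, *Thbs4* at 4022 CPM). It also had 8 of 8 MSC-S markers (3485 CPM) and 3 of 8 chondrocyte markers (6122 CPM, *Comp* at 5246 CPM). The ages differed by less than 2-fold, and without the top cells MSC-S had 35.7 and 10.8 CPM, 3.3-fold (2.95 to 3.7) lower in old cells. In MSC-L, 1 old cell held 99% of 197 counts, and in mOPr 1 young cell held 99.1% of 116 counts.

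*Dkk3* (ENSMUSG00000030772) lies on the minus strand of chromosome 7 from 112116017 to 112159057. It was found in every mesenchymal population and was highest in young mOPr. Young mOPr had 665 CPM (652 to 679) and old mOPr 192 CPM (185 to 200.2), 3.46-fold (3.31 to 3.62) lower. Single young mOPr ranged from 0 CPM in the lowest cell to 2856 CPM in the highest, with a median of 424 CPM, and old mOPr from 0 CPM in the lowest cell to 1844 CPM in the highest, with a median of 0 CPM. Most young and few old mOPr had the gene, 76.9% (56.4 to 91%, 20 of 26) against 15.4% (4.36 to 34.9%, 4 of 26). The fall was seen in ranges 1 and 2, with log2 ratios of -1.35 and -2.08.

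The *Dkk3* counts of old mOPr were concentrated, with 64.7% in 1 cell, and without the top cells the levels were 564 and 72.9 CPM (7.73-fold lower, 7.2 to 8.31). In the osteoprogenitor clusters M3 to M5 alone, young mOPr had 184 CPM and old mOPr 388 CPM, so that the direction turned. That turn rested on the same old cell, since these clusters had 139.6 and 147 CPM with their top cells left out, close to equal. Young mOPr counts lay mostly in M15 (35.7%) and M12 (25.9%), which lie outside M3 to M5. How far the change in the clusters of mOPr with age bears on this fall was not tested.

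In MSC-S *Dkk3* stood at 221 CPM (216 to 226) in young and 265 CPM (259.8 to 270.00) in old cells, with the lowest, median and highest cell at 0, 18.3 and 2275 CPM and 0, 45.5 and 1821 CPM. It was present in 54.2% (40.8 to 67.3%, 32 of 59) of young and 57.6% (44.1 to 70.4%, 34 of 59) of old MSC-S, and the ages overlapped throughout. The M9 cells all had the gene, at 45.5, 598 and 1215 CPM in the lowest, median and highest cell, and held 50.3% of the old counts. Without them old MSC-S had 167 CPM, below the young level. Among clusters of at least 4 cells, M14 had the most *Dkk3* in sum, at 1334 CPM (1288 to 1381), followed by M15 at 625 CPM (611 to 639) and M9 at 624 CPM (607 to 641). The intervals leave out the spread between cells, and the 4 cells of M14 ranged from 328 to 2275 CPM. M15 reached 2049 CPM in its highest cell, so the clusters overlapped.

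OPr had 185 CPM (181 to 190.5) of *Dkk3* in young and 81.8 CPM (78 to 85.7) in old cells, 2.27-fold (2.15 to 2.39) lower. The gene was present in 15 of 44 young and 8 of 29 old OPr, and the fall came from range 1, where old OPr had no count and young OPr 309.95 CPM. Without the cells with hematopoietic markers old OPr had 109 CPM, 1.7-fold (1.61 to 1.8) lower, and in clusters M3 to M5 alone OPr had 95.6 and 80.2 CPM (1.19-fold lower, 1.1 to 1.29), and with the top cells of these clusters left out 77.7 and 23.7 CPM (3.28-fold lower, 2.88 to 3.75). In range 2 young OPr had 89.3 CPM and old OPr 137 CPM, the opposite direction.

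Of the remaining populations, MSC-L had the most *Dkk3*. They had 105 CPM (101 to 109) in young and 90.5 CPM (86.4 to 94.8) in old cells, with 23 of 53 young and 21 of 58 old cells having *Dkk3* and the ages overlapping. The MSC-L ranges went opposite ways, with log2 ratios of -1.33 in range 1 and 0.68 in range 2. SEC had 6.11 CPM (5.12 to 7.24) in young and 11.1 CPM (9.75 to 12.7) in old cells, and without the top cells 1.53 and 6.76 CPM. Without the cells with mesenchymal markers SEC had 1.73 and 9.43 CPM, and leaving out all of E1 gave a log2 ratio of 3.30. AEC did not exceed 1.61 CPM.

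The endosteal and central populations of young mice differed in most members that passed the filter. Against young MSC-L, young MSC-S differed at least 2-fold in 7 of 8 members (45.5% of 13645 genes did). MSC-S were higher in *Dkk2*, by 1211-fold (217 to 47861) with 1 count in MSC-L, in *Frzb* by 46.3-fold (37.9 to 57.2) and in *Dkk3* by 2.11-fold (2.02 to 2.21). For *Dkk3* the log2 ratio was 0.68 in range 1, short of 2-fold, and 1.53 in range 2. MSC-L were higher in *Sfrp1* by 3.25-fold (3.06 to 3.46) and in *Sfrp4* by 2.18-fold (2.15 to 2.21), but in range 1 alone *Sfrp4* had a log2 MSC-S over MSC-L ratio of 0.53, the opposite direction. *Wif1* differed by less than 2-fold. The log2 MSC-S over MSC-L ratio without the top cells was 3.96 for *Frzb* and -3.86 for *Sfrp1*. *Sfrp2* was higher in MSC-S (38.7-fold, 29.9 to 51), and without the top cells its log2 ratio was 1.69, smaller but still past 2-fold. The higher *Sfrp5* of MSC-L rested on the single cell described above. Without the top cells its log2 ratio was -0.41, short of 2-fold.

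Along the osteoprogenitor line, young OPr differed from young MSC-S in 6 of 8 members (36.3% of 13756 genes). OPr were higher in *Wif1* by 5.97-fold (5.81 to 6.13) and in *Sfrp5* by 417-fold (162 to 1532), and lower in *Sfrp4* by 7.14-fold (6.93 to 7.36), in *Sfrp2* by 5.29-fold (4.83 to 5.79) and in *Sfrp1* by 5.99-fold (5.2 to 6.94). For *Sfrp1* the log2 OPr over MSC-S ratio was 0.07 in range 1 and -4.81 in range 2. *Dkk2* was almost confined to MSC-S, 519-fold (177 to 2520.03) lower in OPr with 3 counts. Without the top cells the log2 ratios were 3.80 for *Sfrp5*, -3.42 for *Sfrp4*, -3.01 for *Sfrp2*, -1.83 for *Sfrp1* and 1.56 for *Frzb*, which with all cells was 0.01. *Frzb* and *Dkk3* differed by less than 2-fold, and *Wif1*, *Sfrp4*, *Frzb* and *Dkk3* were present in both populations.

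Young mOPr differed from young OPr in 6 of 8 members (37.9% of 12733 genes). The multipotent cells had more *Dkk3*, by 3.59-fold (3.47 to 3.71), and less *Frzb*, by 19.1-fold (16.3 to 22.6), and *Sfrp5* had no count in mOPr, at least 235-fold lower. *Sfrp1* was 54.2-fold (14.8 to 450.4) lower with 2 counts in mOPr. Without the top cells the log2 ratios of *Sfrp5* and *Sfrp1* were -3.88 and -1.21. For *Dkk3* the log2 mOPr over OPr ratio was 0.37 in range 1, short of 2-fold, and 3.33 in range 2. The higher *Sfrp2* and *Dkk2* of mOPr each came from 1 cell, and without the top cells their log2 ratios were 0.13 and 0.00.

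Young AEC and SEC could be compared in range 3 only, with 24 AEC and 70 SEC. All 4 members that passed were lower in AEC, but none reached 100 counts in these AEC, so that they passed the filter through SEC (42.2% of 11908 genes differed at least 2-fold). *Sfrp4* had no count in these AEC, at least 439.9-fold lower than in SEC, and *Wif1* was 7.62-fold (4.19 to 15.4) lower, *Sfrp1* 6.69-fold (4.00 to 12.1) and *Sfrp2* 4.68-fold (2.31 to 11.1). The top SEC weighed on *Wif1* and *Sfrp2*, whose log2 ratios were -2.37 and -1.60 with all cells and -1.29 and -0.81 without the top cells. For each of these genes the SEC with mesenchymal markers held more than 50% of the young SEC counts, from 56.2% for *Sfrp1* to 90.1% for *Wif1*.

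The number of antagonists per cell differed between populations. The median number of members per cell was 3 in young and 2 in old MSC-L, 2 in MSC-S and mOPr of both ages, 1 in OPr of both ages and 0 in AEC and SEC. No MSC-L was without a member, whereas 11 of 29 old OPr and 63 of 84 young AEC were. Of 354 mesenchymal cells, 98 had *Dkk3* with *Sfrp4*, against 90.0 from the single frequencies, and for *Wif1* with *Sfrp4* it was 72 against 69.4. These pairs were thus about as frequent as the single genes would give. *Sfrp1* with *Sfrp4* was seen in 78 cells against 55.1, and *Wif1* with *Frzb* in 16 against 11.3, 8 of them in M4, where every cell had *Wif1*. *Wif1* with *Sfrp1* was seen in 48 cells against 32.8, while *Sfrp4* with *Frzb* was less frequent than its single genes would give, in 10 against 18.9. In M9 every cell had *Sfrp4* and every cell *Dkk3*, and in M2 22 of 50 cells had *Sfrp4* with *Wif1*, against 24. The populations and clusters differ in each gene, which the single frequencies over all mesenchymal cells do not take into account.

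The genes most like each member were sought by Pearson's correlation of log2(CPM + 1) over the 12 groups, among 12983 genes. The groups share gates, since both ages of a population were sorted alike, and they share library-number ranges, so the correlations are a description. The closest genes to *Dkk3* were the collagen gene *Col5a1* (r = 0.99, n = 12), *Gas1* (0.98), the collagen gene *Col1a2* (0.97), *Larp6* (0.97) and *Lrp1* (0.97). *Frzb* was most like the cartilage gene *Chad* (0.92), which encodes chondroadherin. Next came *Col9a2* (0.89), a collagen of cartilage, and at nearly the same r *Lsp1* (0.89), *Cemip* (0.88) and *Steap1* (0.88). *Wif1* was closest to *Chpf* (0.96), a chondroitin sulfate synthase gene, *Enpp1* (0.95), whose product makes the mineralization inhibitor pyrophosphate, and *Gpc1* (0.95).

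*Sfrp4* was most like *Serping1* (0.96), the gene of the complement C1 inhibitor, *Mmp19* (0.95) and *Scara5* (0.94). *Sfrp1* was closest to *Csf1* (0.96), which encodes a growth factor of macrophages and osteoclasts, and *Galk2* (0.95). The closest genes were *Sbsn* for *Sfrp2* (0.94), *Aspg* for *Sfrp5* (0.97) and *Elovl7* for *Dkk2* (0.89), and for these members a few cells set the level of a group. Among the members themselves, *Wif1* and *Dkk3* had r = 0.86, *Dkk3* and *Sfrp2* r = 0.83, *Sfrp1* and *Sfrp4* r = 0.79, *Wif1* and *Frzb* r = 0.73, and *Dkk2* and *Sfrp5* r = -0.65.

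The other genes of the Wnt pathway, 83 in all, changed about as often as all genes. Of those that passed the filter, 16 of 57 (28.1%) rose or fell in MSC-L, 19 of 64 (29.7%) in MSC-S and 25 of 61 (41%) in OPr. In mOPr it was 22 of 54 (40.7%), in AEC 12 of 53 (22.6%) and in SEC 11 of 48 (22.9%). All but MSC-S lay within 5 percentage points of the share over all genes given above. The genes named next passed the stricter rule.

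Among Wnt ligands, *Wnt4* fell in MSC-L from 169 to 78.1 CPM (2.16-fold lower, 2.04 to 2.29) and in OPr from 121 to 44.3 CPM (2.74-fold, 2.55 to 2.95). *Wnt5a*, a ligand known for signaling without β-catenin, fell in MSC-S from 71.5 to 15.6 CPM (4.59-fold, 4.2 to 5.03) and in mOPr from 73.5 to 24 CPM (3.06-fold, 2.69 to 3.49). Other changes went both ways. *Wnt6* rose in MSC-L from 0.438 to 11.4 CPM (26.1-fold, 13.9 to 55.1), with 90% of the young counts in 1 cell, and without the top cells by 172-fold (30.5 to 6853). *Wnt5b* rose in MSC-S (4.00-fold (3.36 to 4.79), and 7.69-fold (5.19 to 11.8) without the top cells) and fell in MSC-L (2.44-fold (2.05 to 2.9), and 4.61-fold (3.57 to 6.02) without them). *Wnt4* rose in AEC (2.56-fold (2.01 to 3.27), and 1.33-fold (0.928 to 1.92) without them) and fell in SEC (3.48-fold (2.72 to 4.48), and 5.88-fold (3.96 to 9.03) without them). Counted over the ligands tested, 2 rose and 2 fell of 6 in MSC-L (25.4% of all genes), 1 rose and 3 fell of 8 in MSC-S (19.7% of all genes), 1 rose and 2 fell of 6 in OPr (45.2% of all genes), 0 rose and 3 fell of 5 in mOPr (44.5% of all genes), 1 rose and 1 fell of 5 in AEC (21.1% of all genes), and 0 rose and 1 fell of 3 in SEC (20.7% of all genes).

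Among the receptors, *Fzd9* fell in OPr from 252 to 64.2 CPM (3.92-fold, 3.7 to 4.16) and the co-receptor gene *Lrp5*, whose product Dkk1 and sclerostin bind, from 155 to 55.2 CPM (2.81-fold, 2.64 to 3.00). *Fzd4* rose in MSC-L from 40.4 to 87.1 CPM (2.16-fold, 1.99 to 2.34), and the Wnt5a receptor gene *Ror2* fell there from 33.5 to 9.85 CPM (3.4-fold, 2.9 to 4.01). In MSC-S *Ror2* rose instead, from 3.88 to 27.6 CPM (7.11-fold, 5.94 to 8.58). Counted over the receptor genes tested, 1 rose and 2 fell of 15 in MSC-L (25.4% of all genes). In MSC-S 2 rose and 1 fell of 17 (19.7% of all genes). Of all receptor genes, 4 rose and 6 fell of 17 tested in OPr, where 45.2% of all genes rose or fell. The 4 that rose were *Fzd4* (43.4-fold, 30 to 65.2), *Ror1* (11.4-fold, 9.85 to 13.3), *Fzd5* (4.34-fold, 4.05 to 4.65) and *Lrp4* (2.93-fold, 2.79 to 3.07).

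R-spondins enhance Wnt signaling through their LGR receptors, and their list also holds *Rnf43* and *Znrf3*, whose products remove Wnt receptors from the cell surface. In MSC-S, 5 of 8 genes of this list fell and none rose (19.7% of all genes rose or fell), among them *Lgr4* from 51.6 to 23.1 CPM (2.23-fold, 2.06 to 2.42), *Lgr6* from 32.8 to 7.3 CPM (4.49-fold, 3.94 to 5.13) and *Znrf3* from 41.7 to 19.1 CPM (2.18-fold, 1.99 to 2.38). In mOPr, by contrast, 3 of 6 rose and 1 fell (44.5% of all genes moved), with *Rspo2* up from 0.206 to 40.7 CPM (198-fold (67.3 to 962), with 3 young counts) and *Rspo3* from 2.06 to 110.2 CPM (53.6-fold, 37.4 to 79.7). These ratios without the top cells were 349.7-fold (62.3 to 13858) and 15.6-fold (9.41 to 27.9). The list also had 2 of 6 genes up and none down in MSC-L (25.4% of all genes moved). There *Lgr5* rose from 49.3 to 211 CPM (4.27-fold, 4.00 to 4.57) and, without the top cells, 6.66-fold (6.12 to 7.26). In OPr *Lgr5* rose 16.8-fold (14.7 to 19.3), with 1 old cell holding 88.2% of the old counts, and without the top cells 7.31-fold (5.57 to 9.73). *Rspo4* fell there from 97.9 to 3.6 CPM (27.2-fold, 21.7 to 34.5). Thus 1 gene rose and 1 fell of 7 in OPr (45.2% of all genes moved). In MSC-S *Lgr5* fell 6.46-fold (4.92 to 8.6), with 96.8% of the old counts in 1 cell and 95.6-fold (26.1 to 796) without the top cells. In AEC 0 rose and 2 fell of 4 (21.1% of all genes moved), and 0 passed the stricter rule. In SEC 1 of 5 rose and 3 fell (20.7% of all genes moved). There *Lgr5* rose 5.79-fold (3.43 to 10.4), but 1.69-fold (0.721 to 4.17) without the top cells, while *Rspo2* fell from 9.53 to 2.36 CPM (4.03-fold, 2.94 to 5.62) and *Rspo3* from 9.03 to 2.27 CPM (3.98-fold, 2.88 to 5.6).

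Of other extracellular inhibitors, *Igfbp4* rose in MSC-S, OPr and mOPr, as did *Sfrp4*. Its product binds insulin-like growth factors and has also been described as a Wnt inhibitor. *Igfbp4* rose in MSC-S from 605 to 1561 CPM (2.58-fold, 2.54 to 2.62) and in mOPr from 487 to 4060.4 CPM (8.33-fold, 8.13 to 8.54). In OPr it rose 5.78-fold (5.7 to 5.87). Of this list, 1 rose and 3 fell of 6 in MSC-S (19.7% of all genes). In OPr 1 rose and 2 fell of 5 (45.2%), and in mOPr 2 rose and 0 fell of 4 (44.5%). *Apcdd1* fell in MSC-L from 48 to 18.7 CPM (2.57-fold, 2.28 to 2.9). Among targets and feedback genes, *Nkd2*, an intracellular inhibitor of the pathway, rose in MSC-L from 78.3 to 169 CPM (2.16-fold, 2.04 to 2.29). *Wisp2* rose in MSC-S from 82.7 to 365 CPM (4.42-fold, 4.24 to 4.6) and in mOPr from 20.2 to 807 CPM (40.1-fold, 35.7 to 45.1), and *Wisp1* fell in OPr from 86 to 0.14 CPM, with 3 old counts (613-fold, 209.5 to 2974). *Wisp2* and *Nkd1* rose in OPr, by 4.9-fold (4.62 to 5.19) and 2.76-fold (2.46 to 3.1). Of 9 genes tested there, 2 rose and 1 fell (45.2% of all genes moved). The old mOPr in which several of these genes rose also carried the MSC-L markers given above, and the part of these cells in the rise was not tested. Old OPr had more MSC-L and hematopoietic markers and lower chondrocyte markers than young OPr, as given above. The part of this shift in the OPr changes was not tested.

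Promoter sequences of RefSeq (build GRCm38.p6, 300 bases around the start of each gene) were matched by symbol for 7 of the 10 members, all but *Dkk3*, *Sfrp1* and *Sfrp4*. Those of *Wif1* (chr10:121033754-121034053, plus strand) and *Frzb* (chr2:80447347-80447646, minus strand) are shown because M4 held the largest share of the counts of both genes. Each is written 5′ to 3′ in lower case, with capitals for CTTTG, the core that TCF and LEF factors recognize, or its reverse complement CAAAG.
Wif1: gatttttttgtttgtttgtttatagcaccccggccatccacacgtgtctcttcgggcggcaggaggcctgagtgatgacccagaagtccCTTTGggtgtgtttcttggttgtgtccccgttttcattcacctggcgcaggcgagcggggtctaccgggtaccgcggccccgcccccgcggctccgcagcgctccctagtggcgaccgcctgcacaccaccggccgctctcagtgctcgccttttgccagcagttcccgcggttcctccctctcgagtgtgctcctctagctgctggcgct
Frzb: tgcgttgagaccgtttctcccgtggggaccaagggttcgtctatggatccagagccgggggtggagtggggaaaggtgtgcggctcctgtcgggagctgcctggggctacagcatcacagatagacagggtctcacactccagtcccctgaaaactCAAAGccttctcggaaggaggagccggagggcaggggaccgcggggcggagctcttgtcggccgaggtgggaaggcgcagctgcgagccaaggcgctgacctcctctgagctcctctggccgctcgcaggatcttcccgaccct

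The core was found on either strand of 4 of 7 member promoters, namely 4 times in *Dkk1* and 1 time each in *Dkk2*, *Frzb* and *Wif1*, and in 53.9% of all 32851 mouse promoters. With both strands searched, the longer TCF and LEF word CTTTGAT, which contains the core, was found in 3.73% of all promoters, the RUNX word TGTGGTT in 5.27% and the SOX word ACAATGG in 3.66%, and none of these was found in a member promoter. With 7 promoters these shares are a description of the sequences.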

How the data were processed

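Plate-based single-cell RNA libraries of 336 young and 325 old cells were analysed. The authors aligned the reads to GRCm38.p4 with GSNAP and deposited read counts per gene and cell, which they made with HTSeq in its unstranded mode over the genes of Ensembl 81, per their processing notes. Gene positions and lengths were taken from GENCODE M21. The table held 46078 rows, of which 45771 were nuclear genes. Depth was 57517 to 1488549 nuclear gene counts per cell, so that a gene at 10 CPM had about 4 counts in a cell of median depth.

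Counts were summed over the cells of each population and age and scaled to CPM with Python 3.11.15, numpy 2.4.6, pandas 2.3.3 and scipy 1.17.1, and figures were drawn with matplotlib 3.10.9. Population and age were read from the labels, and clusters are those the authors gave for each cell. Since the labels name no mouse, no test between groups was made, and the DESeq2 comparisons over cells of the authors were not used here. Changes were called from the ratio with 1 CPM added, at 2-fold, among genes that reached 100 counts over the ages together and were seen in 5 or more cells. A count of 0 was given a limit of 3 counts over the group. The code for the calls and intervals was run on simulated Poisson counts, with a constant rate per gene in all cells of an age. Those counts lack the spread between cells and ranges seen here, so the run checks the code only and not how the calls hold under such spread.

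The genes named were all 10 members, other Wnt pathway genes past 2-fold by the stricter rule, and for each member with at least 1000 counts the 5 genes with the highest Pearson r over the 12 groups, among genes with at least 1000 counts and 10 CPM in 1 group. Not every gene so selected is named, and most of those of the Wnt pathway were picked, after their values were seen, from ratios that leaving out the top cells moved little. The members and marker lists were chosen with earlier results of these data known. The alternatives were fixed in advance, also with those results known: per-cell means, size factors, thinning to 100000 counts, a pseudocount of 0.1 CPM, single library-number ranges, leaving out the top cells, cells with markers of other lineages, cells outside the clusters of their population, other count filters, and CPM without length. Leaving out cluster M9 or E1, and leaving out the top cells within the clusters of OPr and mOPr, were added after seeing the data.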

Additional observations from a re-analysis of the deposited data

Results flagged for a closer look

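By the stricter rule, *Sfrp4* and *Sfrp1* changed in opposite directions with age in different populations. The log2 old over young ratio of *Sfrp4* was -1.11 in MSC-L and -1.44 in SEC, but 2.98 in MSC-S, 2.45 in OPr and 3.04 in mOPr. That of *Sfrp1* was 3.34 in OPr and 6.19 in mOPr, but -1.66 in AEC. By the 2-fold rule alone *Sfrp2* and *Frzb* also went both ways, and the stricter rule is what set *Sfrp4* and *Sfrp1* apart. The difference between populations was not tested, as each age of a population counted as 1 sample. The rise of *Sfrp4* in MSC-S was mostly that of the M9 cells, without which it was 1.38-fold (1.36 to 1.39), and in mOPr it turned in clusters M3 to M5. In OPr, *Sfrp4* and *Sfrp1* turned in these clusters when their top cells were left out. The fall of *Sfrp1* in AEC rested on 1 young cell with 72.7% of the counts and passed 2-fold in range 2 only.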

How the results depend on the processing

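Of 23 calls of a member, 4 passed 2-fold under every alternative (*Wif1* in MSC-S, *Sfrp5* in OPr, *Sfrp1* in mOPr and *Sfrp4* in SEC), and 10 had the same direction under all of them. The cause of the changes below was not tested. No paired analysis was possible because the labels name no mouse.

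Leaving out the top cells changed the number of members past 2-fold from 4 to 2 in MSC-L, from 3 to 5 in MSC-S and from 4 to 1 in AEC, and turned the log2 ratio of *Sfrp2* (1.61) and *Frzb* (-2.37) in mOPr and of *Sfrp4* in AEC (0.16). In range 1 alone, ratios turned for *Sfrp2* in MSC-L (-0.26) and *Dkk2* in AEC (1.66). In range 2 they turned for *Dkk3* in OPr (0.61), *Sfrp2* (2.45) and *Frzb* (-3.89) in mOPr and *Wif1* in AEC (0.10), and in range 3 for *Dkk2* (3.29) and *Sfrp4* (0.70) in AEC. AEC had 2 members past 2-fold in range 2 and 1 in range 3.

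Without cells of the other lineage, AEC had 2 members past 2-fold, and *Sfrp4* in AEC (0.30) and *Wif1* in SEC (0.22) turned. Without cluster E1, an alternative chosen after seeing the data, AEC also had 2, and *Sfrp4* in AEC (0.26) and *Wif1* (0.22) and *Sfrp2* (0.12) in SEC turned. Within the clusters of each population, AEC had 2, and the turned ratios were *Dkk3* (1.07), *Sfrp2* (0.59) and *Sfrp4* (-1.51) in mOPr and *Wif1* (0.12) and *Sfrp2* (0.25) in SEC. Those clusters hold fewer cells. With the top cells within them also left out, an alternative added after seeing the data, *Sfrp1* (-0.73) and *Sfrp4* (-0.58) in OPr and *Dkk3* (0.07), *Sfrp2* (0.45), *Sfrp4* (-1.38) and *Frzb* (-1.89) in mOPr turned.

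With a stricter filter of 1000 counts and 10 cells, the share of genes past 2-fold fell to 14.1% in MSC-L (from 25.4%), 10.6% in MSC-S (19.7%), 11.6% in AEC (21.1%) and 10.2% in SEC (20.7%). Among young populations, members past 2-fold fell from 7 to 4 for MSC-S against MSC-L in range 1, where *Sfrp4* turned (0.53), and from 6 to 3 for mOPr against OPr in range 2, where *Dkk2* turned (-0.0846). *Sfrp1* in OPr against MSC-S turned in range 1 (0.0713). After thinning, 62 of 64 shares of cells with a member (at least 1 count) lay within the interval of the share at 10 CPM or more, and the share with at least 1 count before thinning was not run.

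Depth limits members at a few counts per group, of which *Dkk1* and *Sost* are the clearest.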
